A study of Mus musculus with 6 samples.

Results

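The antioxidant enzymes described here are 10 genes picked by symbol from the 14986 genes of an expression table of mouse long-term haematopoietic stem cells: the peroxiredoxins Prdx1 to Prdx6, the superoxide dismutases Sod1 and Sod2, catalase (Cat) and the glutathione peroxidase Gpx1. All 10 were in the table, and all 10 were among the 11837 genes whose mean over the libraries reached 1 FPKM (fragments scaled to exon length and to the depth of the library) and which were therefore tested. The study sequenced polyadenylated RNA from bone marrow cells that were depleted of lineage-positive cells and then sorted, with 1500 cells per library. It compared 3 libraries of wild-type cells with 3 libraries labelled Zcchc8 KO, to ask what the loss of ZCCHC8, a scaffold protein that helps bring nuclear RNA to the exosome, does to the transcriptome. KO below means the libraries with that label. The sources used here do not give how the knockout was made or the strain, sex and age of the mice. Nothing in the labels says that replicates came from separate animals, so the spread behind every p-value may be technical. Zcchc8 itself was at 8.93, 5.24 and 5.16 FPKM in the wild-type libraries and at 10.40, 5.54 and 5.92 in KO (limma adjusted p = 0.935), so it was not lower in KO; a value summed over exons cannot show the deletion of part of a gene, and the labels are not checked by it.

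Superoxide leaks from the respiratory chain and is made on purpose by NADPH oxidases. Superoxide dismutases turn it into hydrogen peroxide, and catalase, glutathione peroxidases and peroxiredoxins remove the peroxide. Peroxiredoxins do so with a reactive cysteine and are mostly recharged by thioredoxin, whereas GPX1 uses a selenocysteine and is recharged by glutathione. Long-term stem cells keep reactive oxygen low, and a rise in it is known to drive them out of quiescence.

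The peroxiredoxins and Gpx1 each react with peroxide through a single encoded residue, and the sequence around it shows how alike these 7 members are; Sod1, Sod2 and Cat use bound metals. The lines below give the coding sequence around it from the GENCODE M21 transcripts, 5′ to 3′, with the codon of the reactive cysteine in capitals, or in Gpx1 the in-frame TGA that is read as selenocysteine. In each peroxiredoxin the codon was found as the one place where the translation has a proline, then a threonine or serine, then a cysteine at the spacing of the family.
Prdx1, codon 52: gactttacttttgtgTGTcccacggagatc
Prdx2, codon 51: gacttcacttttgttTGCcccacggagatc
Prdx3, codon 109: gatttcacatttgtgTGTcctacagaaatt
Prdx4, codon 127: gatttcacctttgtgTGTccaactgaaatc
Prdx5, codon 96: gcatttacacctggcTGTtctaagacccac
Prdx6, codon 47: gactttaccccagtgTGCaccacagaactt
Gpx1, codon 47: aatgtcgcgtctctcTGAggcaccacgatc
Prdx1 to Prdx4, the typical 2-cysteine enzymes, are alike at this site, and Prdx5 and Prdx6 stand apart from them. Even among the typical enzymes no pair of coding sequences was above 74.7% identical over its aligned stretch, so the members are not near-identical copies of each other.

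Each of 4 members does have a close copy elsewhere in the genome, at 85% identity or more over at least 200 coding bases. Prdx1 has 4 processed pseudogenes, the closest 98.3% identical over the whole coding sequence of 597 bases, Prdx2 has 2 (up to 96.3%) and Sod1 has 2 (up to 97.8%); none of these 8 was analysed here. The sources used here do not give how reads with several matches, or reads across exon junctions, were handled. The levels of Prdx1, Prdx2 and Sod1, and of Prdx6 and its copy below, are uncertain to that degree. The only copy with values was Prdx6b (chromosome 2, 80292472 to 80295356, GRCm38), a gene of 1 exon that is 92.9% identical to Prdx6 over all 672 coding bases without a gap. The 90 coding bases around the reactive cysteine, bases 94 to 183 of both, show how far a read can tell the genes apart, with the 6 differences in capitals.
Prdx6: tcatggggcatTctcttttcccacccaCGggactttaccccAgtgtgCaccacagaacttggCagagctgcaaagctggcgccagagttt
Prdx6b: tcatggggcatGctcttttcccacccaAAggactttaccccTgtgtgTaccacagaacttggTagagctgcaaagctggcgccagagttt

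All 10 genes were well expressed, each within the top 20% of the table by mean level and 6 of them within the top 10%. Gpx1 stood far above the rest at 981.7 FPKM over the 6 libraries, 95th of 14986 genes. It was followed by Prdx3 (98.3 FPKM), Prdx5 (84.95), Prdx6 (73.9), Prdx1 (64.6), Cat (46.9), Prdx4 (42.3), Sod1 (39.3), Prdx2 (33.6) and Sod2 (22.8). Gpx1 was the highest and Sod2 the lowest in all 6 libraries, with no overlap with the next gene. Between these ends every pair of neighbours overlapped in range, and Cat was above Prdx4 in 3 of 6 libraries. Gpx1 alone made up 62.7% to 69.4% of the summed FPKM of the 10 genes, which came to 0.229% to 0.267% of the table's total.

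The middle of this order depends on the gene length behind FPKM. The deposited values divide reads by the merged length of all annotated exons, which for some members is several times the length of the main messenger RNA. For Sod1 the merged length was 3970 bases against 641 bases for the principal coding transcript, for Prdx1 it was 3043 against 877 and for Sod2 10008 against 5861. The length of the principal transcript gives another scale, chosen after seeing the data, on which reads over other exons are counted in and raise the values. How reads across exon junctions were counted is not given, so the order of genes is uncertain on either scale. Per length of the principal transcript, Sod1 moved from rank 8 to rank 2 (243.2) and Prdx1 from rank 5 to rank 3 (224.3). Prdx3 went from rank 2 to rank 6 (98.3). Gpx1 stayed first (1319.6) and Sod2 last (38.8). Folds between groups are the same on both scales, since the length is a constant of the gene.

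**Figure D1:**
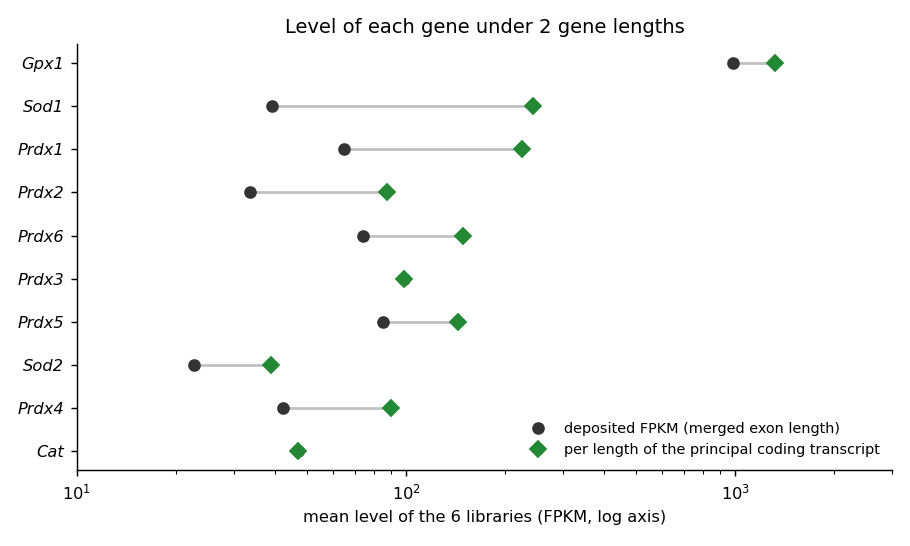
Mean level of each of the 10 genes over the 6 libraries, on a log axis in FPKM. Circles are the deposited values and diamonds the same reads per length of the principal coding transcript; Sod1 goes from 39.3 to 243.2 and Prdx1 from 64.6 to 224.3, whereas Cat and Prdx3 have the same length on both scales.

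In the libraries labelled KO, none of the 10 genes passed an adjusted p of 0.05 by limma on log2(FPKM + 1), where 0.228% of all tested genes (27) did. An unadjusted two-sided p under 0.05 was found for 2 of the 10, Gpx1 and Prdx4, both higher in KO. Over all tested genes 9.20% had such a p, 4.87% with a higher and 4.33% with a lower level in KO. The same 2 genes were the only members whose groups did not overlap, against 15.2% of all tested genes, 8.24% with KO higher and 6.99% with KO lower. The median log2 change of the 10 was -0.03, beside 0.00 over all tested genes, with 4 members higher and 6 lower by value. The 95% interval of each member's change lay within a 2-fold change either way, and that of 9 of the 10, all but Prdx4, within 1.5-fold; the lowest bound of any was -0.54 on the log2 scale and the highest 0.63. The counts behind these values were 1391 to 36133 reads per gene and library.

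**Figure D2:**
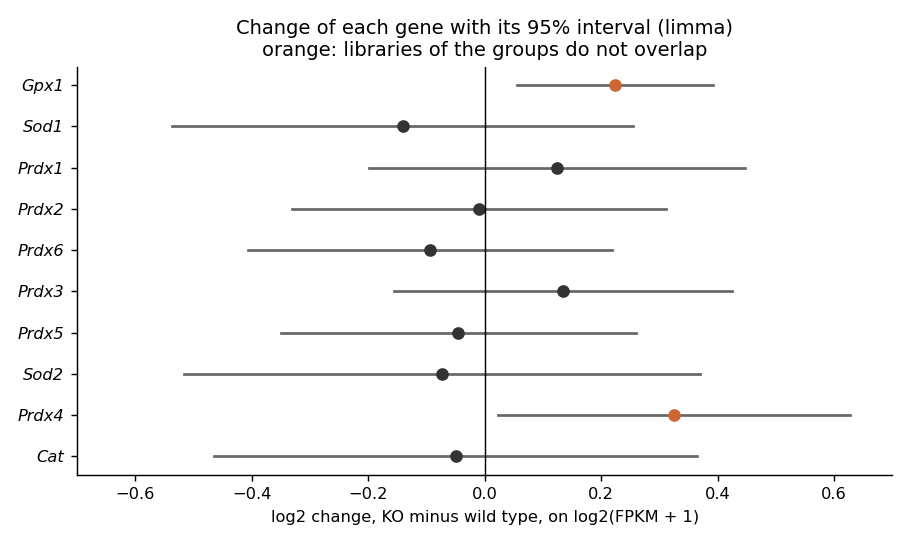
Log2 change of each gene, KO minus wild type, on log2(FPKM + 1), with its 95% interval from limma. The intervals of Gpx1 and Prdx4, in orange, exclude 0 before adjustment for the number of genes tested, and those of the other 8 include it.

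Gpx1, which reduces hydrogen peroxide and soluble lipid peroxides in the cytosol and mitochondria (chromosome 9, 108338903 to 108340343), was at 919.4, 845.4 and 951.3 FPKM in the wild-type libraries and at 975.3, 1073.7 and 1125.2 FPKM in KO. Each KO library was above each wild-type library, though KO library 1 was close to wild-type library 3. The means were 905.4 ± 54.3 and 1058.1 ± 76.1 FPKM (SD, n = 3), a log2 change of 0.22 ± 0.074 (SE) with a 95% interval of 0.06 to 0.39 and an adjusted p of 0.385 (limma). The exact two-sided permutation test over libraries gave p = 0.1, the smallest that 3 against 3 allow. Over the 16 other settings tried the adjusted p of Gpx1 ran from 0.320 to 0.738. Its unadjusted p was over 0.05 without limma's variance trend, without wild-type library 2 and without KO library 3.

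Prdx4, the peroxiredoxin of the endoplasmic reticulum, where it takes up peroxide made during the formation of disulfide bonds (chromosome X, 155323918 to 155340754), was at 37.7, 36.1 and 38.4 FPKM in the wild-type libraries and at 45.7, 48.98 and 46.7 FPKM in KO. Libraries within a group lay close together, and the gap between the groups was wider than the range within either. The KO mean was 1.26 times that of wild type (47.1 ± 1.68 against 37.4 ± 1.197 FPKM, SD, n = 3). The log2 change was 0.33 ± 0.13 (SE), with a 95% interval of 0.02 to 0.63, an adjusted p of 0.506 and an unadjusted p of 0.0379 (limma). The exact permutation p was again 0.1. Over the 16 other settings its adjusted p ran from 0.443 to 0.702. Prdx4 was under an unadjusted p of 0.05 in 5 of them, and over it without any single library, and Gpx1 was under it in 13. Prdx4 is on the X chromosome, and the Y-linked gene Ddx3y, looked at for this reason after the values were seen, was at 9.23, 9.88 and 10.8 FPKM in the wild-type libraries and at 9.88, 7.25 and 10.3 in KO.

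**Figure D3:**
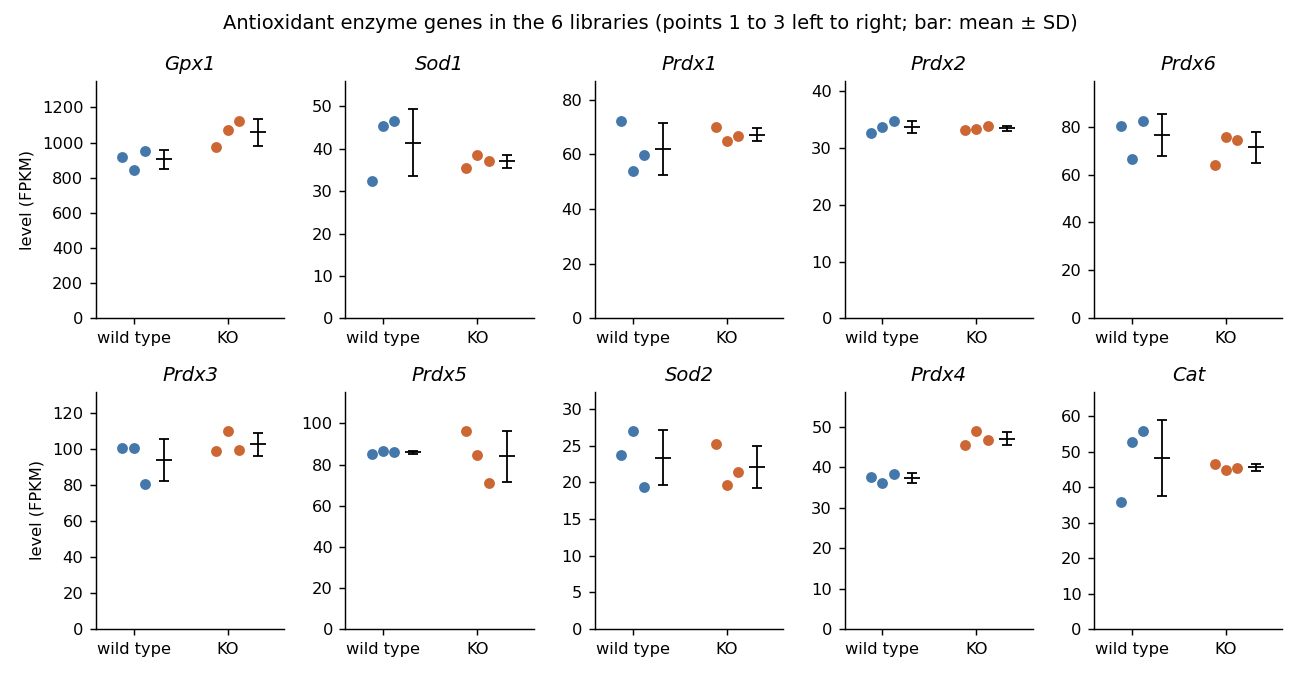
Level in FPKM of each gene in the 3 wild-type libraries (blue) and the 3 libraries labelled KO (orange), in replicate order, with mean and SD beside them; each panel starts at 0 and has its own scale. Only in the panels of Gpx1 and Prdx4 do all KO points lie above all wild-type points.

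The libraries also differed in markers of other cells. All 16 genes of the stem cell marker list were in the table, with summed levels of 707.4 to 740.6 FPKM in the wild-type libraries and 642.4 to 723.3 in KO; 1 of them passed, Cd48, low on long-term stem cells, which rose. Beside the higher Gpx1 and Prdx4, some markers of other blood cells rose in KO and others were lower. Of 9 tested erythroid genes 4 passed, where 0.228% of all tested genes did. All 9 were higher in KO by value, 6 without overlap, beside 8.24% of all tested genes. The 10 erythroid genes in the table summed to 119.1 to 157.5 FPKM in the wild-type libraries and 439.7 to 475.6 in KO. Of 5 eosinophil genes 4 passed and all 5 were higher, 4 of them without overlap (sums of 1.05 to 3.25 and 170.4 to 210.9). Of 5 monocyte and dendritic genes 2 passed, H2-Aa and H2-Eb1, and all 5 were higher without overlap (125.3 to 152.8 and 244.9 to 291.1). Of 11 neutrophil genes 1 passed, S100a9, which was higher in KO and is also the largest part of the list's sums (3065 to 3198 and 3926 to 4345). Without overlap 6 of the 11 were higher in KO, S100a9 among them, and 2 were lower, beside 8.24% and 6.99% of all tested genes. The 2 lower were the granule protein genes Mpo (67.5 ± 4.07 and 49.9 ± 4.65 FPKM, SD, n = 3) and Prtn3 (254.6 ± 17.9 and 199.3 ± 16.1). Both were named after their values were seen and did not pass. Of 7 tested B cell genes 1 passed, Igkc, which fell and took the list's sums from 816.2 to 927.6 down to 107.7 to 126.2. Another 5 of the 7 were higher at an unadjusted p under 0.05, beside 4.87% of all tested genes, and did not pass. None of 4 T and NK cell genes passed (191.0 to 232.8 and 310.4 to 324.3, most of it Nkg7), and 3 of the 4 were higher by value. None of 6 megakaryocyte genes passed (221.4 to 318.6 and 355.9 to 398.6, most of it Pf4), and 3 of the 6 were lower by value. Calls were lost in 13 of the 16 alternatives for H2-Eb1, in 8 each for H2-Aa and Cd48, in 7 for Hba-a1 and in 4 for S100a9. For H2-Aa and H2-Eb1 the removal of any single library was enough, for Cd48 that of any but KO library 1, for Hba-a1 that of wild-type library 1 or 3 or of KO library 2 or 3, for S100a9 that of wild-type library 2 or of KO library 2 or 3, and for Hba-a2 that of KO library 3. The 4 eosinophil genes, Igkc and Hba-a2 lost their calls with voom on recovered reads, and Car1 without limma's variance trend. No gene of these lists that was in the table was at 0 in all 6 libraries, but some listed genes had no row in it. It held 10 of 14 listed erythroid genes, 5 of 9 eosinophil genes and 5 of 9 monocyte and dendritic genes. Of the other lists it held 10 of 11 B cell, 6 of 9 T and NK cell, 7 of 8 megakaryocyte and all 11 neutrophil genes. Prg2, the major basic protein of eosinophils, was at 0 in wild-type libraries 1 and 2. The part of other cells in the levels of Gpx1 and Prdx4 was not tested, and in sorted bulk samples a change in the share of cells and a change in RNA per cell cannot be told apart.

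Among the other enzymes of the cytosol, Sod1, the copper and zinc dismutase (chromosome 16, 90220754 to 90226329), was at 32.4, 45.3 and 46.7 FPKM in the wild-type libraries and at 35.4, 38.6 and 37.2 in KO. The wild-type libraries spanned all of the KO values, with library 1 the lowest of the 6. The log2 change was -0.14 ± 0.17 (SE, limma adjusted p = 0.854). Prdx1, an abundant thioredoxin-dependent peroxidase (chromosome 4, 116685544 to 116700822), was at 72.4, 54.0 and 59.7 FPKM in the wild-type libraries and at 69.9, 65.1 and 66.7 in KO. Here wild-type library 1 was the highest of the 6, the reverse of its place for Sod1. The log2 change of Prdx1 was 0.12 ± 0.14 (adjusted p = 0.836).

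Prdx2, the peroxiredoxin best known from red cells (chromosome 8, 84969587 to 84974834), had the steadiest values of the 10, at 32.7, 33.7 and 34.9 FPKM in the wild-type libraries and at 33.2, 33.3 and 33.99 in KO. Only 0.161% of tested genes varied less within groups on the log2 scale. Its log2 change was -0.01, with a 95% interval of -0.33 to 0.31 that is wide because limma draws the spread of each gene toward that of genes of like level. Prdx2 shares 177 exon bases with Rnaseh2a and 173 with Junb, both on the opposite strand. Rnaseh2a was between 7.48 and 12.7 FPKM in all libraries. Junb was at 151.6, 153.1 and 180.2 FPKM in the wild-type libraries and 166.5, 145.2 and 116.8 in KO; the sources used here do not say whether the counting used strand, so reads in those bases cannot be told apart. Prdx6, the 1-cysteine enzyme that also reduces phospholipid peroxides (chromosome 1, 161240112 to 161251219), was at 80.4, 66.4 and 82.6 FPKM in the wild-type libraries and at 63.9, 75.9 and 74.5 in KO, with overlapping groups (log2 change -0.09, adjusted p = 0.882). Its copy Prdx6b was above it in FPKM, at 133.2, 102.9 and 122.0 FPKM in the wild-type libraries and 112.3, 117.3 and 136.3 in KO, also overlapping (log2 change 0.03, adjusted p = 0.967). Per length of the principal transcript the order turned, with Prdx6 at 148.8 and Prdx6b at 120.7 on average and Prdx6 the higher in all 6 libraries. Reads of either gene may have been counted at the other, so neither order is certain.

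The mitochondrial enzymes overlapped between groups as well. Prdx3, the matrix peroxiredoxin (chromosome 19, 60864051 to 60874556), was at 100.9, 100.6 and 80.4 FPKM in the wild-type libraries and at 98.95, 109.998 and 99.3 in KO, with wild-type library 3 below the other 5 (log2 change 0.13, adjusted p = 0.795). Prdx5, which is found in mitochondria, peroxisomes and cytosol (chromosome 19, 6906697 to 6910106), was at 85.3, 86.5 and 86.2 FPKM in the wild-type libraries and at 96.2, 84.5 and 71.1 in KO. Its wild-type libraries differed by under 2 FPKM while the KO libraries spread on both sides of them, a coefficient of variation of 0.730% against 14.9%. Prdx5 shares 409 exon bases, 19.1% of its merged length, with Trmt112 on the opposite strand, which was at 24.9, 17.9 and 27.1 FPKM in the wild-type libraries and 30.2, 23.3 and 22.2 in KO. Sod2, the manganese dismutase of the matrix (chromosome 17, 13006846 to 13040063), was at 23.7, 27.0 and 19.4 FPKM in the wild-type libraries and at 25.3, 19.6 and 21.4 in KO (log2 change -0.07, adjusted p = 0.948).

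Cat, the peroxisomal enzyme that splits hydrogen peroxide without a reducing partner (chromosome 2, 103453849 to 103485160), was at 35.9, 52.8 and 55.8 FPKM in the wild-type libraries and at 46.7, 44.9 and 45.4 in KO. All 3 KO values fell between wild-type library 1 and the other wild-type libraries, and the coefficient of variation was 22.3% in wild type and 2.07% in KO. Its log2 change was -0.05, with a 95% interval of -0.46 to 0.36 (adjusted p = 0.964). Over the 10 genes the coefficient of variation was larger in wild type for 7 and larger in KO for Prdx4, Prdx5 and Gpx1; no test of the difference in spread was made. No library was high or low throughout: within wild type, library 1 was lowest for 4 members and highest for 2, and within KO, library 1 was lowest for 6 and highest for 4.

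Summed over the 9 members other than Gpx1, the libraries held nearly the same FPKM, 501.4, 502.3 and 504.1 in wild type and 515.3, 520.8 and 496.5 in KO. The 6 peroxiredoxins together came to 389.6 ± 17.3 and 405.996 ± 12.8 FPKM (SD, n = 3). The mitochondrial 3, Prdx3, Prdx5 and Sod2, came to 203.3 ± 15.1 and 208.8 ± 15.0. With Gpx1 added, all 10 came to 1408.0 ± 55.0 and 1568.9 ± 69.1, so the difference in the total was almost that of Gpx1.

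The genes that recharge and control these enzymes were followed in 7 lists, 89 genes in all, of which 74 were tested. Of these 74, 1 passed the test (1.35%, against 0.228% of all tested genes). An unadjusted p under 0.05 was found for 11 (14.9% against 9.20%), 4 higher and 7 lower in KO. Groups did not overlap for 14 (18.9% against 15.2%), 7 each way. The median log2 change of the 74 was 0.02. The gene that passed was Glrx5, the mitochondrial glutaredoxin that hands on iron-sulfur clusters and is not known as a peroxide scavenger. It rose from 9.28, 9.89 and 6.54 FPKM to 33.7, 29.6 and 23.2 FPKM, a log2 change of 1.64 ± 0.23 (SE, limma adjusted p = 0.0339), and no other member of the 10 tested glutathione synthesis and glutaredoxin genes passed, with Gclm, the modifier subunit of glutamate-cysteine ligase named here after its values were seen, at 28.5 ± 3.08 and 31.1 ± 7.09 FPKM. The call of Glrx5 ended in 10 of the 16 alternatives, the removal of any single library among them, and its adjusted p ran from 0.0185 to 0.148.

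In the thioredoxin list none of 12 tested genes passed, and 2 had groups that did not overlap (16.7%, against 15.2% of all tested genes). Txn1, the cytosolic thioredoxin that recharges the typical peroxiredoxins, was at 268.6, 255.5 and 266.6 FPKM in the wild-type libraries and at 337.1, 297.8 and 285.6 in KO. Txnip, which binds thioredoxin and blocks it, was at 165.9, 178.5 and 193.6 FPKM in the wild-type libraries and at 139.3, 160.1 and 141.2 in KO. Neither gene overlapped between groups, with Txn1 above and Txnip below in KO, and neither passed (limma adjusted p = 0.509 and 0.455). Txnrd1, the reductase of cytosolic thioredoxin, reached 30.4 FPKM in KO library 1 and was between 15.2 and 20.7 FPKM in the other 5.

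In the list of NRF2, the factor that switches on many antioxidant genes, none of 19 tested genes passed, and the median log2 change was -0.07. An unadjusted p under 0.05 was found for 2 (10.5%, against 9.20% of all tested genes), both lower. Maff, one of the small MAF partners of NRF2, was at 6.89, 5.23 and 9.77 FPKM in the wild-type libraries and at 1.96, 0.407 and 0.944 in KO (limma adjusted p = 0.12). Osgin1, an NRF2 target induced by oxidative stress, was at 13.9, 8.14 and 15.9 FPKM in the wild-type libraries and at 0, 2.07 and 5.93 in KO (adjusted p = 0.289). Nfe2l2, which encodes NRF2 itself and was named after its values were seen, was at 39.3 ± 5.51 and 39.9 ± 7.68 FPKM (SD, n = 3). Among 15 glutathione transferases none passed, and 2 had an unadjusted p under 0.05 (13.3%, against 9.20% of all tested genes). Both were lower, Gstt2 (15.3 ± 2.58 and 9.82 ± 1.25 FPKM) and Gsta4 (9.90 ± 3.20 and 5.08 ± 1.73). Of the 5 tested genes among other dismutase and glutathione peroxidase genes none passed or had such a p; Ccs, the chaperone that loads copper into SOD1, was at 24.2 ± 3.27 and 18.6 ± 2.77 FPKM.

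Of the FOXO list, factors and regulators known to hold down reactive oxygen in stem cells, none of 9 tested genes passed. Groups did not overlap for 3 (33.3%, against 15.2% of all tested genes), 1 higher and 2 lower. An unadjusted p under 0.05 was found for 2 (22.2%, against 9.20%), Foxo3 and Meis1, both lower. Meis1 was at 49.8 ± 6.99 and 38.2 ± 1.11 FPKM (SD, n = 3, limma adjusted p = 0.506). Foxo3, needed for the upkeep of stem cells and a regulator of Sod2 and Cat in other settings, was at 32.8, 30.5 and 27.0 FPKM in the wild-type libraries and at 17.4, 18.1 and 22.7 in KO, without overlap (log2 change -0.61 ± 0.18, SE, limma adjusted p = 0.327). Sod2 and Cat overlapped between the same libraries, as given above, and a link with Foxo3 was not tested. Of the 8 tested subunits of the NADPH oxidase none passed, and 2 had an unadjusted p under 0.05 (25%, against 9.20% of all tested genes). Both were cytosolic subunits of the phagocyte enzyme and higher, Ncf4 (7.90 ± 2.49 and 14.4 ± 2.49 FPKM, SD, n = 3) and Ncf1 (4.87 ± 1.83 and 9.54 ± 3.48).

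**Figure D4:**
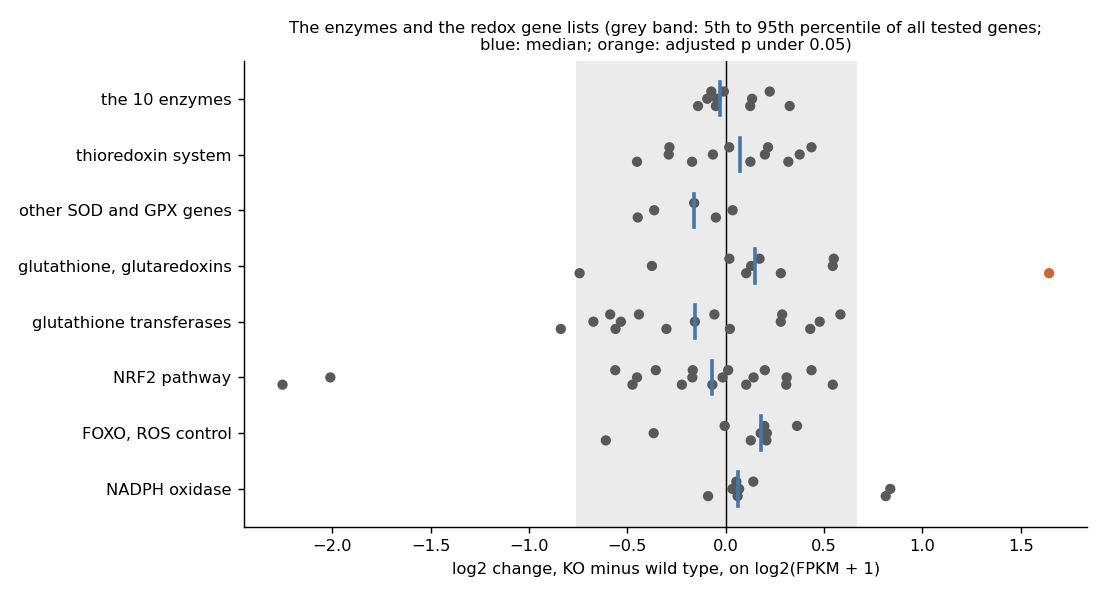
Log2 change, KO minus wild type, of the 10 enzymes and of the tested genes of 7 redox lists; each point is 1 gene, blue bars are medians and the grey band spans -0.76 to 0.66, from the 5th to the 95th percentile of all tested genes. The 10 enzymes lie between -0.14 and 0.33, and Glrx5 at 1.64 is the one point past the test.

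Promoters were examined since NRF2 and FOXO proteins act through known sequences. RefSeq promoter windows around the transcription start (GRCm38.p6) were at hand for 9 members, all but Prdx6. The core of the antioxidant response element, TGACNNNGC on either strand, was found in 2 of the 9, Prdx1 and Sod1, beside 12.4% of all 32851 promoter windows, and the FOXO core TGTTTAC in none of the 9, beside 3.65%. The 100 bases around each match are shown because these are the members that carry it, with the match in capitals.
Prdx1, chr4:116685420-116685519, plus strand: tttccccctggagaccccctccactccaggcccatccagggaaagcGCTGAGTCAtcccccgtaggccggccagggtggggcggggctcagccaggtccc
Sod1, chr16:90220660-90220759, plus strand: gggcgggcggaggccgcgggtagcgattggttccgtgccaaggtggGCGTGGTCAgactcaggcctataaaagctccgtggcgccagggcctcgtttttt
The Prdx1 match starts 133 bases before the start and overlaps an AP-1 site, TGACTCA on either strand, a motif that 5.202% of windows hold. The Sod1 match starts 56 bases before the start. Neither Prdx1 nor Sod1 passed the test, with overlapping groups for both, and neither Prdx4 nor Gpx1 held a match in its window. A link between the matches and the levels was not tested. The windows are short, and some lie inside the gene. In Prdx4 (chromosome X, 155338411 to 155338710) the gene is annotated up to 155340754 on the minus strand. The window of Sod2 (13007589 to 13007888) also lies inside its gene, and that of Gpx1 (108338830 to 108339129) lies mostly inside. Sites outside the windows were not searched. A match is a description of these letters and does not show binding.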

How the data were processed

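Per the submitters' processing notes, fastp, Bowtie2 and featureCounts were used with build mm10, without versions. The sources used here do not give the annotation, the strand or multi-match settings, or how reads across exon junctions were handled. The authors deposited FPKM per gene symbol, 14986 genes in 6 columns. Symbols were matched to GENCODE M21 (GRCm38) for 98.0% of genes. FPKM times merged exon length was a multiple of 1 step per library (98.1% of values below 100 reads whole within 0.05), which gave 18059318 to 25709663 reads behind the values; intervals for counting alone would overstate precision, since amplified reads carry no molecular identifiers. Replicates differed by more than counting error (chi-square per gene of 53.1 to 75.6).

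Genes averaging 1 FPKM or more were tested on log2(FPKM + 1), which understates changes of low genes, in limma 3.58.1 (R 4.3.3; lmFit, two-sided, eBayes with trend), and p-values were adjusted over all of them by Benjamini-Hochberg, with a threshold of 0.05. Folds are ratios of mean FPKM. The procedure was also run on simulated data. These had normal errors with a spread set by the mean level, the form limma assumes, so the run cannot show how well it suits these libraries. Copies were sought with blastn 2.17.0; figures used matplotlib 3.10.9. The members and lists were chosen with earlier results of these data known. Named are all members, Zcchc8, copies, up to 3 genes of smallest p per redox list, and of cell type lists those that passed or were most abundant, given mostly as sums. The 16 alternatives changed pseudocount, filter, scaling, variance model, block, count model (voom) or left out a library.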

Additional observations from a re-analysis of the deposited data

How the results depend on the processing

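No member passed an adjusted p of 0.05 in any of the 16 settings tried, and Prdx1, Prdx3, Prdx4, Prdx6, Sod1 and Gpx1 kept their sign in all of them. The number of members at an unadjusted p under 0.05, 2 as reported, was 1 under TPM scaling, quantile scaling, the replicate block and voom on recovered reads, 0 without limma's variance trend, and 0 to 1 with 1 library left out. The number of redox genes called, 1 as reported, was 0 without a filter, without the variance trend, with the replicate block, with voom and with any library left out. Calls over all genes went from 27 to 8 without the trend, 11 with the replicate block, 8 with voom and 11 to 19 with 1 library left out. The labels give same-numbered libraries only a number in common. Their deviations from the group means correlated at 0.024, 0.0071 and 0.0037. With 3 libraries per group these values cannot show whether same-numbered libraries were prepared together. With 1 library left out, the log2 change crossed 0 for Prdx2 (-0.0313 to 0.0134), Prdx5 (-0.15 to 0.0677), Sod2 (-0.19 to 0.0322), Cat (-0.24 to 0.0670), Prdx6b (-0.0684 to 0.12), Zcchc8 (-0.11 to 0.37), Gpx3 (-0.70 to 0.29), Gpx8 (-1.29 to 0.17) and Cd79b (-0.73 to 0.17). Prdx6b was at -0.000205 under TPM and -0.0590 under quantile scaling. The causes were not tested.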
